A study of Mus musculus with 6 samples.

Results

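The 111 rows described here are the mouse genes and pseudogenes of the cytosolic ribosomal proteins. They were taken from a liver expression table of 19613 rows by name (Rpl or Rps with a digit, and Rpsa, Rplp0, Rplp1 and Rplp2, leaving out the Rps6k kinases) and by a mean of at least 1 FPKM over the 6 libraries. FPKM is a fragment count divided by gene length and by sequencing depth. The members were chosen by this mean level, so their levels are given as a description. Of the 111 members, 76 are core subunits, 8 are paralogs or genes that only share the name pattern, and 27 carry -ps in the name and are described apart as pseudogenes.

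The livers came from knockout (KO) mice and from wild-type (WT) mice, with 3 libraries each. Both genotypes had received 15 mg/kg of LPS, the endotoxin of Gram-negative bacteria, into the peritoneal cavity, and livers were taken 6 h later. No untreated liver was analysed here, so the comparison is between genotypes under endotoxin. Strain, sex and age are not stated in the labels. Nor do they say that each library is a different mouse, and the p-values therefore cover only the variation from library to library, which may be technical.

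The cytosolic ribosome is built from a small subunit, whose proteins are the products of the Rps genes, and a large subunit, whose proteins are those of the Rpl genes, each around ribosomal RNA. Most of these mRNAs begin with a 5' terminal oligopyrimidine (TOP) tract, through which mTORC1 and LARP1 control their translation and stability as a group. Because the mRNAs are abundant and short, reverse-transcribed copies of them have been inserted many times in mammalian genomes. These processed pseudogenes, or retrocopies, have no introns and often remain almost identical to the parent gene, which makes their reads hard to assign.

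None of the 84 ribosomal protein genes outside the pseudogenes passed the test of KO against WT, near the 1.07% of all rows. The pseudogene Rps13-ps1 fell to 4.75 ± 0.0861 scaled FPKM in KO, against 80.01 ± 5.32 in WT livers (SD, n = 3 each). A pair of retrocopies of Rplp0 that lie outside the naming rule, Gm8730 and Gm6278, were also lower in KO. Gm6278 reached a mean of 1 FPKM through its WT libraries alone, so its selection favoured a fall. Rps13, the parent of Rps13-ps1, had the largest positive fold change of the 84 other members, at 40.4 ± 4.06 scaled FPKM in KO and 25.2 ± 3.08 in WT, and did not pass the test. When the reads of Rps13 and Rps13-ps1 were added together, KO and WT had 3821 ± 376 and 3809 ± 377 scaled reads.

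Values below are FPKM divided by median-of-ratios size factors ("scaled FPKM"), and fold changes are differences of log2(scaled FPKM + 1), KO minus WT, from limma, with p-values adjusted by the Benjamini-Hochberg method over all 9218 rows tested. The addition of 1 understates the change of low genes. Over all rows tested, 99 passed an adjusted p of 0.05, which is 1.07%, with 44 higher (0.477%) and 55 lower (0.597%) in KO. All 111 members passed the filter of at least 1 FPKM in 3 libraries, and in 110 of them the mean FPKM of both genotypes was at least 1. The exception was Rpl10-ps6, with a mean over 1 in KO only.

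The libraries held between 23129253 and 40195897 reads in genes, recovered from the FPKM steps. The 76 core genes took 1.57% ± 0.0503 of these reads in KO and 1.52% ± 0.122 in WT (SD, n = 3 each). Hepatocyte markers summed to between 19370 and 23066 scaled FPKM in KO and between 21595 and 28153 in WT, with all 8 markers tested and none called. No marker tested was called among those of Kupffer cells (6 tested), neutrophils (7), endothelium (5), cholangiocytes (2), stellate cells (2) and erythroid cells (4). The markers of B cells, of T and NK cells and of cycling cells did not reach the filter, so none of them was tested. In whole tissue, fewer cells of a type and less RNA per cell cannot be told apart.

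The core genes spanned a wide range of levels. Rplp1, an acidic protein of the stalk that recruits elongation factors to the large subunit, was the most abundant at a mean of 497 FPKM. It was followed by Rps3a1 at 301 FPKM, by Rps2, a protein near the mRNA entry channel, at 294 FPKM, by Rps15 at 293 FPKM and by Rpl10, a late-joining protein of the large subunit, at 247 FPKM. In all, 31 core genes had at least 100 FPKM, 42 had 10 to 100 FPKM and 3 had less than 10 FPKM. Those 3 were Rpl13a (5.84 FPKM), Rpl29 (4.80 FPKM) and Rps10 (1.95 FPKM), so the levels of core genes ranged over 255-fold although each protein is present once per ribosome, apart from the stalk.

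Because FPKM is divided by gene length, level and length are linked by construction. How much of that range goes with length was not tested. The lengths behind the deposited values are sums over all annotated exons, with a median of 1806 bases and a range of 383 to 6270 bases over the 76 core genes. The rank correlation of this length with mean FPKM was -0.44 across these genes, which are not independent, and its negative sign is in part built in. Rps15a, named here after its values were seen, at 14.2 FPKM, had the longest of these lengths and 3059 reads per library on average, whereas Rps10 had only 150 reads per library. The core genes of fewest reads were Rps10, Rpl29 (185 reads) and Rpl13a (417 reads), and the most were found for Rps2 (18424 reads).

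The naming pattern held 235 rows, of which 124 had a mean under 1 FPKM and are not members. These were 116 pseudogenes, 7 paralogs and a single core gene, Rpl24, with 0.854 FPKM. Just under the threshold lay Rpl34-ps1 (0.979 FPKM), Rpl17-ps3 (0.978 FPKM) and Rps10-ps2 (0.971 FPKM), and just above it Rpl10-ps6 (1.10 FPKM), Rpl9-ps6 (1.16 FPKM) and Rpl27-ps3 (1.18 FPKM). Near-identical copies were common around low and high genes alike: the 77 core genes had a median of 2 annotated pseudogenes with at least 98% identity to the coding sequence, and the rank correlation of this number with the mean FPKM was 0.04.

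**Figure D1:**
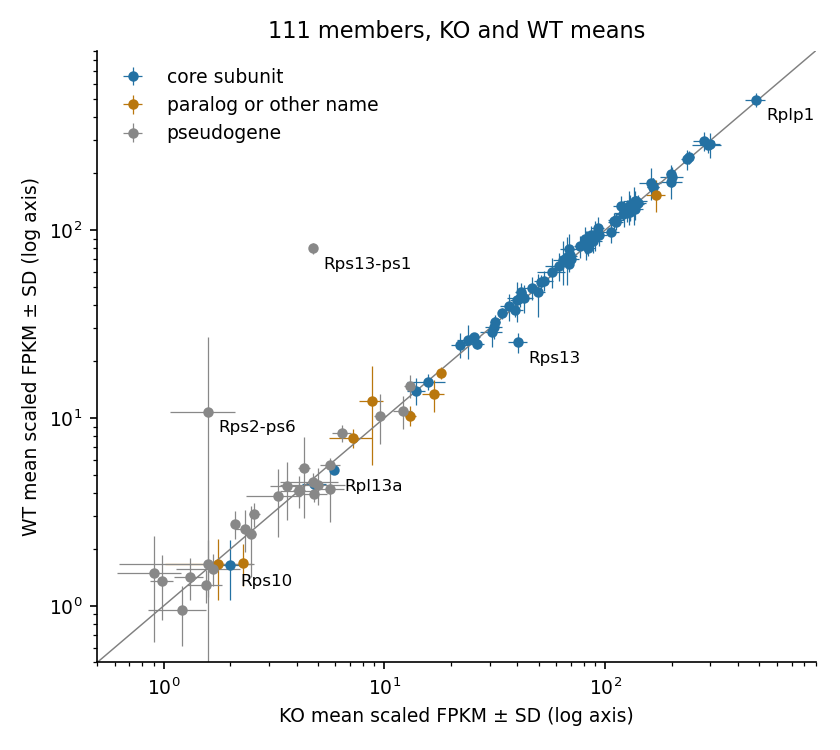
Mean scaled FPKM of the 111 members in KO (horizontal, log axis) and in WT (vertical, log axis), with SD bars over 3 libraries each; the line marks equal means. Core genes and paralogs lie along the line, Rps13-ps1 lies far above it at 4.75 in KO and 80.01 in WT, and the WT mean of Rps2-ps6 has an SD larger than itself.

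None of the 84 ribosomal protein genes that are not named as pseudogenes passed the test (limma), set against 1.07% of all rows. Of these 84, 2 had an unadjusted p under 0.05, Rps13 and Rps19bp1, against 14.1% of all rows, and limma-voom on the recovered reads called none either. Their median log2 fold change was -0.02, with 33 members above 0 and 51 below, and the median over all rows tested was -0.005. The range was narrow. Of the 76 core genes all but Rps13 lay between -0.18 and 0.20, and 80% of the 76 lay between -0.11 and 0.08, against -0.30 and 0.27 for 80% of all rows. The core genes were more abundant, with a median level of 86.1 FPKM against 5.11 FPKM over all rows tested. Of 31 proteasome subunits, also abundant, 80% lay between -0.20 and 0.006. Whether the narrow range goes with level was not tested. The median standard error of a core gene was 0.14, and outside Rps13 their 95% intervals reached from -0.56 to 0.57 at the extremes. With 3 libraries per genotype, differences inside these intervals were not excluded. The intervals do not mark the smallest change that would be called, since a call needed an adjusted p under 0.05. Rps13, with a log2 fold change of 0.66, lay beyond these extremes and was not called (adjusted p = 0.077, limma). KO and WT did not overlap in 5 of the 84 genes, 4 higher and 1 lower, against 20.2% of all rows.

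**Figure D2:**
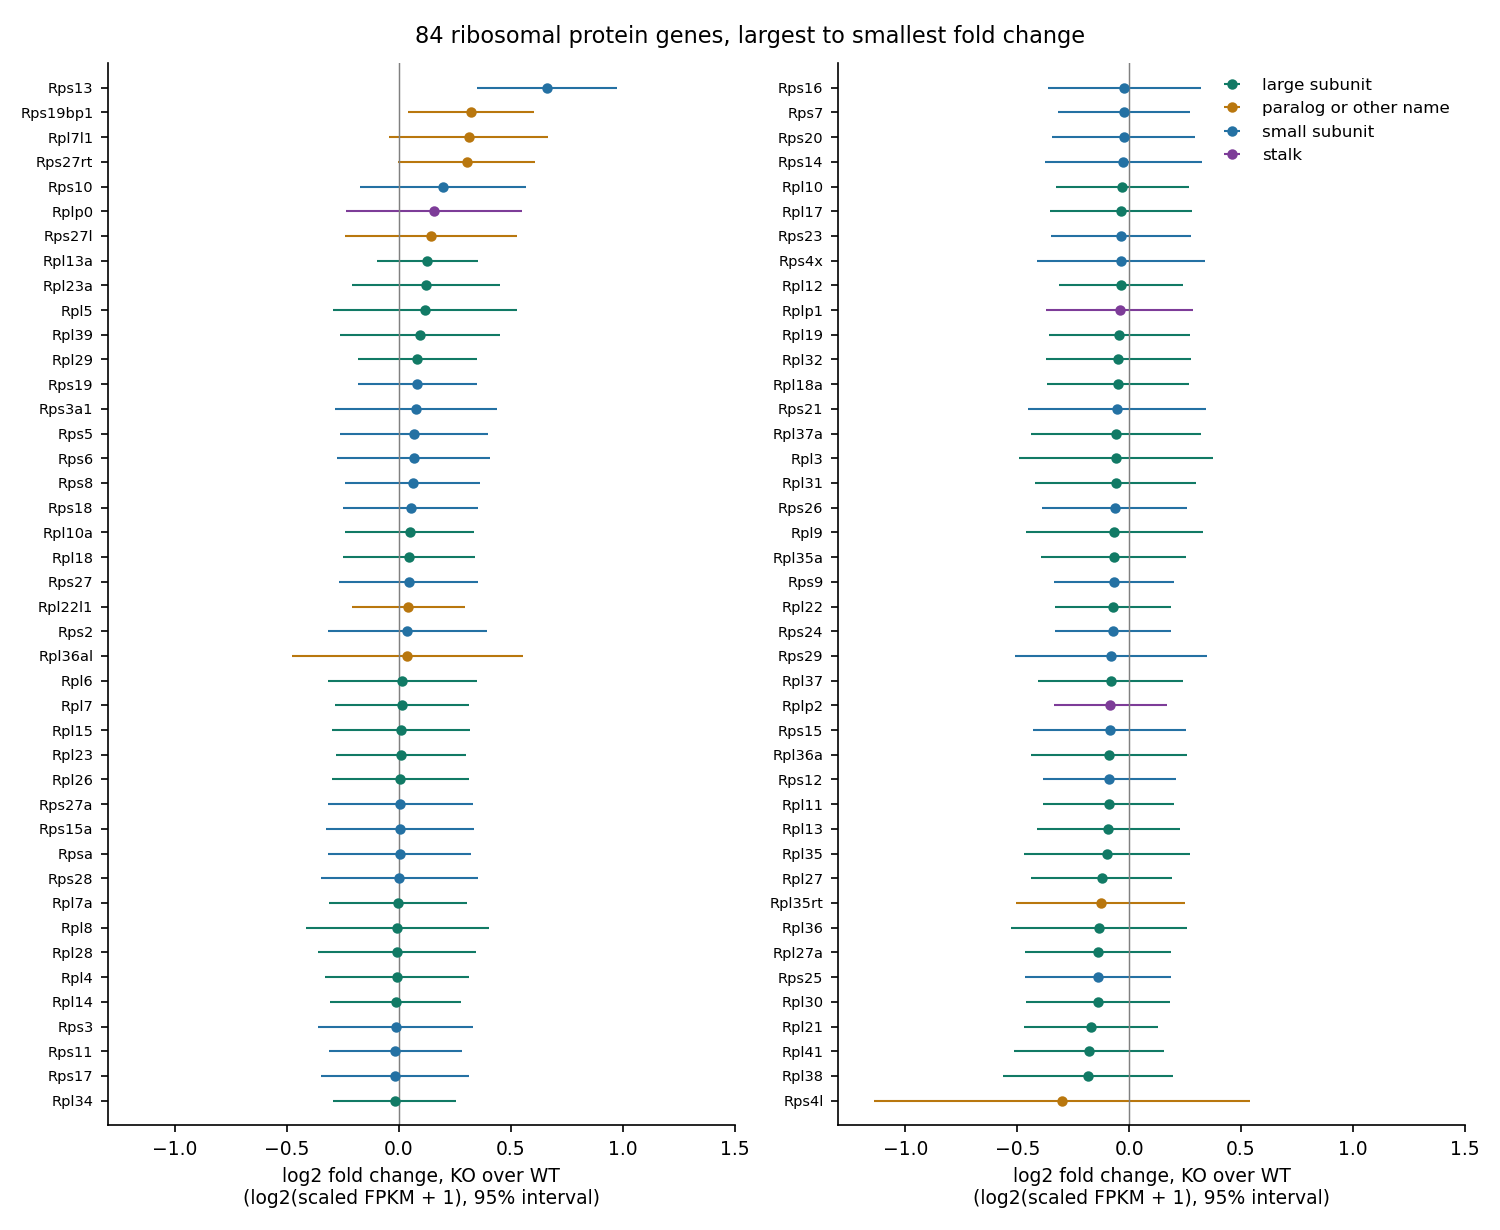
Log2 fold change, KO over WT, of the 84 ribosomal protein genes with 95% intervals from limma (n = 3 libraries per genotype), ordered from the largest to the smallest and coloured by subunit. Rps13 stands at 0.66 with an interval of 0.35 to 0.97, and the intervals of all other genes but Rps19bp1 cross 0.

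Among the 31 small-subunit genes the median log2 fold change was -0.01, and none was called. Rps6, the subunit phosphorylated by S6 kinases, had 227, 181 and 198 scaled FPKM in KO, against 218, 184 and 176 in WT (log2 fold change 0.07 ± 0.15 SE). Rpsa, which is also known as a laminin receptor, had 156, 132 and 132 scaled FPKM in KO, against 151, 145 and 125 in WT. These groups overlapped for both genes, and their highest library was replicate 1 in either genotype. Rps3, at the mRNA entry site, averaged 43.0 ± 4.09 scaled FPKM in KO and 43.7 ± 7.35 in WT. Rps19, whose human counterpart is the gene most often mutated in Diamond-Blackfan anaemia, averaged 26.3 ± 1.84 and 24.8 ± 1.64. Rps20 averaged 52.8 ± 5.39 in KO and 53.7 ± 6.46 in WT, and Rps27a, made as a fusion with ubiquitin, 94.2 ± 7.60 in KO and 94.1 ± 11.8 in WT (SD, n = 3 each). Of these genes none moved by more than its spread between libraries. Rps10, the least abundant of the core genes, had 1.83, 1.91 and 2.26 scaled FPKM in KO and 1.15, 1.52 and 2.29 in WT, which overlapped.

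The 42 large-subunit genes outside the stalk had a median log2 fold change of -0.04, with 12 above 0 and 30 below and none called. Rpl5 and Rpl11, which with 5S RNA bind Mdm2 when ribosome assembly stalls, differed in the pattern of their libraries. Rpl5 had 52.9, 45.7 and 50.1 scaled FPKM in KO, against 60.4, 40.02 and 39.2 in WT, so that the WT values lay on both sides of the KO values. Rpl11 had 75.3, 66.5 and 64.1 scaled FPKM in KO, against 72.4, 79.4 and 67.7 in WT. Rpl3, next to the peptidyl transferase centre, was even in KO (67.5, 67.6 and 66.3) and uneven in WT (95.3, 58.4 and 61.4). Rpl23 averaged 136 ± 6.53 scaled FPKM in KO and 136 ± 11.7 in WT. Rpl10 averaged 239 ± 14.0 and 245 ± 18.7, with a log2 fold change of -0.03 (95% interval -0.33 to 0.27).

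Rpl13a, known as the subunit that leaves the ribosome for the GAIT complex in interferon-treated human monocytes, had 5.65, 6.04 and 5.97 scaled FPKM in KO and 5.03, 5.33 and 5.55 in WT. The groups did not overlap, yet the fold change was 0.13 with an adjusted p of 0.628 (limma). The largest negative fold changes among core genes belonged to Rpl38 (-0.18), Rpl41 (-0.18), Rpl21 (-0.17) and Rpl30 (-0.14). Rpl38 had 70.4, 74.6 and 61.6 scaled FPKM in KO, against 68.5, 97.6 and 71.0 in WT, and WT replicate 2 alone lay above every KO library. Rpl41, with the shortest coding sequence of all, had 127, 116 and 109 in KO, against 150, 137 and 114 in WT. All 4 had adjusted p-values between 0.619 and 0.730 (limma).

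Of the 3 stalk genes, Rplp0, the anchor of the stalk, had 220, 173 and 205 scaled FPKM in KO, against 218, 168 and 154 in WT (log2 fold change 0.16, adjusted p = 0.751 by limma). Rplp1 averaged 481 ± 48.7 in KO and 495 ± 41.0 in WT (SD, n = 3 each). Rplp2, the partner of Rplp1, had 43.8, 42.3 and 39.4 scaled FPKM in KO and 44.5, 44.7 and 43.9 in WT, and the highest KO value lay just below the lowest WT value. Its log2 fold change was -0.08 (adjusted p = 0.795).

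The 8 paralogs and other names had a median log2 fold change of 0.09 and no called gene. Rps27l, a p53-inducible paralog of Rps27, was the abundant form in this liver, with 169 ± 16.6 scaled FPKM in KO and 154 ± 30.1 in WT, whereas Rps27 itself had 31.3 ± 2.74 and 30.4 ± 4.10 (FPKM, per exonic length). Rpl22l1 had 17.4, 18.6 and 17.9 scaled FPKM in KO, against 17.1, 18.9 and 16.3 in WT, beside Rpl22 with 25.6 ± 1.57 and 26.9 ± 1.58. Rpl7l1, a paralog of Rpl7, had 18.6, 14.8 and 16.9 scaled FPKM in KO, against 16.3, 11.5 and 12.4 in WT (0.31, adjusted p = 0.416), and Rpl7 averaged 112 ± 8.27 and 111 ± 10.3. Rpl36al averaged 1.76 ± 0.742 in KO and 1.67 ± 0.604 in WT beside Rpl36a with 36.6 ± 3.30 and 39.3 ± 6.49.

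Rps27rt, a retrogene of Rps27, had 2.23, 2.38 and 2.29 scaled FPKM in KO and 2.01, 1.87 and 1.21 in WT (0.30, adjusted p = 0.364). Rps19bp1, which binds Rps19 and is no subunit, had 13.4, 12.2 and 13.6 in KO and 10.7, 11.3 and 8.89 in WT (0.32, adjusted p = 0.293). In both, KO lay above WT in every library without passing the test. Rps4l had the largest negative fold change of the 84, at -0.30 ± 0.37 SE. By its name it is a relative of Rps4x, and the GENCODE annotation lists it as a transcribed processed pseudogene. It stood at 9.10, 7.55 and 9.61 scaled FPKM in KO, against 18.2, 5.09 and 13.6 in WT, so that the WT libraries lay on both sides of the KO libraries. Rps4x averaged 129 ± 6.82 in KO and 134 ± 27.8 in WT. Rpl35rt averaged 7.19 ± 1.59 in KO and 7.85 ± 0.930 in WT. Rpl39 averaged 30.7 ± 3.62 in KO and 28.8 ± 4.93 in WT. The paralogs Rpl3l and Rpl39l lay under the level threshold.

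The level of the core genes varied from library to library within each genotype. In KO replicate 1, 69 of the 76 lay above their own mean over the 6 libraries, in KO replicates 2 and 3 23 and 19 did, and in WT replicates 1, 2 and 3 the numbers were 51, 55 and 3. Summed over the 76 genes, the level was 7653 ± 516 scaled FPKM in KO and 7772 ± 695 in WT (SD, n = 3 each), so the genotypes differed by less than the spread of either. The deviations also followed the length of the coding sequence, in opposite directions in different libraries. Their rank correlation with coding length across the 76 genes was 0.19, -0.44 and 0.73 in the KO libraries (replicates 1 to 3), against 0.53, -0.74 and -0.16 in the WT libraries in the same order. Over the 8567 rows tested with a coding length it lay between -0.26 and 0.24 in the 6 libraries. These are descriptions across genes of the same libraries.

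In WT replicate 2, the 25 core genes with coding sequences of up to 399 bases lay a median of 0.30 log2 units above the mean of the other WT libraries, while the 26 with at least 576 bases lay 0.05 below it. Rps29, with 168 coding bases, had 67.3, 68.2 and 57.2 scaled FPKM in KO, against 57.9, 90.4 and 59.5 in WT. Rpl36 had 175, 169 and 140 in KO, against 161, 218 and 156 in WT. Both, named after their values were seen, were highest in WT replicate 2, the library in which Rpl3 was lowest. Across the 76 genes, the rank correlation of the KO over WT fold change with coding length was 0.46, and -0.01 over the 8567 rows. Without WT replicate 2 it was -0.19 and without KO replicate 3 it was 0.12, so the order of the small fold changes by length rested on these libraries. With any other library left out it lay between 0.44 and 0.66.

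**Figure D3:**
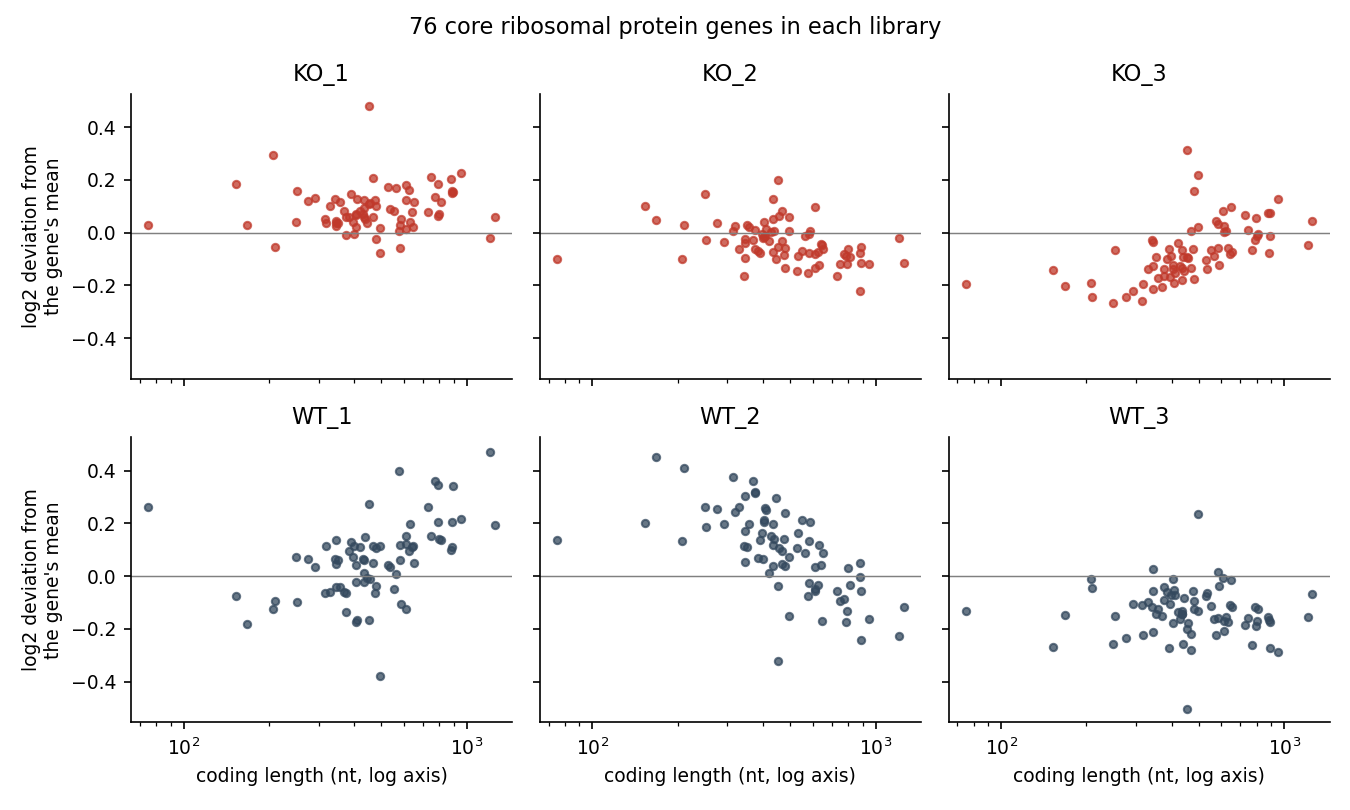
Deviation of each of the 76 core genes from its own mean over the 6 libraries (log2(scaled FPKM + 1), vertical) against the length of its coding sequence (nucleotides, log axis), with KO libraries in the upper row and WT libraries in the lower row. Points slope upwards in KO replicate 3 and WT replicate 1 and downwards in WT replicate 2, and nearly all lie below 0 in WT replicate 3.

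Rps13, a small-subunit protein at the interface with the large subunit, had 44.7, 36.7 and 39.8 scaled FPKM in KO libraries, against 28.3, 25.3 and 22.1 in WT libraries. Every KO library lay above every WT library. The log2 fold change was 0.66 ± 0.14 SE, with an adjusted p of 0.077 (limma). The adjusted p was under 0.05 with weights per library (0.0195) and with quantile normalization (0.0303). It was 0.0585 with limma-voom on the recovered reads, and lay between 0.0582 and 0.241 with a library left out.

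Rps13-ps1 is a processed pseudogene on chromosome 8, and Rps13 lies on chromosome 7 (GENCODE M21, GRCm38). It had 4.80, 4.66 and 4.81 scaled FPKM in KO libraries, against 83.6, 82.5 and 73.9 in WT libraries. The KO values were nearly equal, and no library fell between the groups. The log2 fold change was -3.81 ± 0.11 SE with an adjusted p of 1.21e-06 (limma), and the pseudogene stayed under an adjusted p of 0.05 in each of the 22 alternatives that gave it a value, 6.9e-05 being the highest adjusted p with a library left out. It was the only called pseudogene of the 27, against 1.07% of all rows. KO and WT did not overlap in 3 of the 27 (11.1%), all lower in KO, against 20.2% of all rows.

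The coding part of Rps13-ps1 matched the 453 bases of the Rps13 coding sequence without gaps and with 99.6% identity. The copy carried T411C and A429G, counted from the first base of the start codon with the base of Rps13 first, and both lie at the third base of a codon. The last 100 bases of the Rps13 coding sequence are shown because they hold every difference (GENCODE M21 transcripts, differing bases in capitals).
Rps13: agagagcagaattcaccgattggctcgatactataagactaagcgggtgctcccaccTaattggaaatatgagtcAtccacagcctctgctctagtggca
Rps13-ps1: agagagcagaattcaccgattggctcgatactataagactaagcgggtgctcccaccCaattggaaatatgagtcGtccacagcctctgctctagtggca
A stretch of 100 bases was identical in the parent and the copy at 311 of the 354 positions where it can start (87.9%). Reads of that length from those positions match both genes. Rps13 has 4 annotated pseudogenes with at least 98% identity to its coding sequence, 1 of them identical over the aligned part. Such reads may match those copies as well. The transcript of the copy has 538 bases, and the exons that set the FPKM of Rps13 sum to 2691 bases, so equal FPKM of the pair does not mean equal reads.

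In reads, Rps13 had 4335, 3667 and 5139 in the KO libraries, against 2232, 2236 and 1578 in the WT libraries. Rps13-ps1 had 93, 93 and 124 reads in KO, against 1319, 1458 and 1053 in WT. The copy thus took 2.31% ± 0.191 of the reads of the pair in KO and 38.9% ± 1.53 in WT (SD, n = 3 each). After scaling for depth, Rps13 was 1402 reads higher in KO on average and Rps13-ps1 fell by 1390 reads. For the sum of the pair the libraries held 4221, 3475 and 3767 scaled reads in KO, against 4158, 3860 and 3410 in WT, and the groups overlapped. With the reads of retrocopies added to the parent, an analysis chosen after seeing the data, the log2 fold change of Rps13 was 0.01 ± 0.14 SE (adjusted p = 0.984, limma-voom), where it was 0.68 ± 0.14 SE before the addition. The treatment of multiply matching reads before deposit is not stated, and its part in these values was not tested. The genome sequence of the KO and WT mice at Rps13, Rplp0 and their copies was not analysed here.

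**Figure D4:**
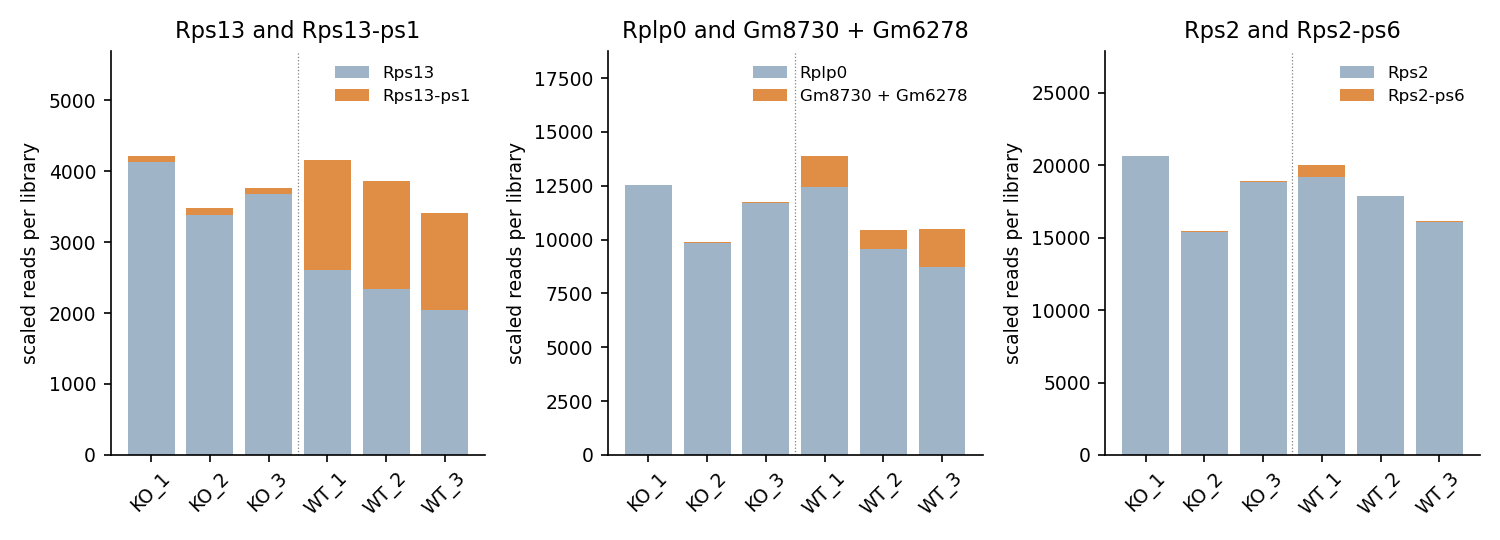
Scaled reads per library of 3 parent genes (blue) with those of their retrocopies stacked on top (orange), KO libraries on the left and WT libraries on the right of each panel. The sum for Rps13 and Rps13-ps1 lies between 3410 and 4221 in the 6 libraries while the share of the copy is 2.31% in KO and 38.9% in WT, and the orange part for Rps2-ps6 is visible in WT replicate 1 only.

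Retrocopies of ribosomal proteins also appear under other names. A search of annotated pseudogenes and -ps names with a mean of at least 1 FPKM against the coding sequences of the ribosomal proteins (at least 100 bases at 85% identity) found 57 copies of 36 parents, 25 of them among the 27 pseudogene members and 32 with other names. The other members, Rps27a-ps3 and Rps18-ps5, were not among the copies found. Only rows with a GENCODE M21 transcript under their symbol were searched. In 44 of the 57 the identity was at least 98%, and 11 were identical to the parent over the aligned part. Of the 31 tested copies with other names, 2 were called, against 1.07% of all rows. Both were lower in KO, both are copies of Rplp0, and they were named after their values were seen. Gm6278 passed the filter through its WT libraries alone, which favoured a fall in KO, so the counts here are a description. KO and WT did not overlap in 4 of the 31 (12.9%), against 20.2% of all rows.

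Gm8730, a processed pseudogene on chromosome 8, had 0.786, 0.988 and 1.22 scaled FPKM in KO libraries, against 39.7, 23.9 and 48.6 in WT libraries (log2 fold change -4.21 ± 0.23 SE, adjusted p = 0.000144, limma). Gm6278, on chromosome 16, had 0.216, 0.140 and 0.108 in KO libraries, against 6.98, 4.10 and 5.53 in WT libraries (-2.48 ± 0.16 SE, adjusted p = 0.000353). Both were low in every KO library and their groups lay far apart. Gm6278 was under 1 FPKM in every KO library and reached the level threshold and the filter for testing through its WT libraries alone. Its selection therefore favoured a fall in KO. Together they took 0.327% ± 0.0663 of the reads of Rplp0 and its copies in KO and 11.9% ± 4.16 in WT (SD, n = 3 each). Their sum with Rplp0 was 11385 ± 1376 scaled reads in KO and 11609 ± 1987 in WT, and the log2 fold change of Rplp0 was -0.02 with the reads of retrocopies added and 0.16 without (limma-voom, adjusted p = 0.969 and 0.732).

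Gm8730 spans all 951 bases of the Rplp0 coding sequence with 12 substitutions (98.7% identity), 10 of them at the third base of a codon. Gm6278 matches from base 213 to base 950 with 24 substitutions and 31 inserted bases (92.8%). They share T300C, A390G, A696G and A784G, with the base of Rplp0 first. Bases 375 to 464 of Rplp0 are shown because they hold 3 of the substitutions of Gm8730 (capitals in Rplp0 mark its differences from Gm8730, capitals in the copies mark their differences from Rplp0).
Rplp0: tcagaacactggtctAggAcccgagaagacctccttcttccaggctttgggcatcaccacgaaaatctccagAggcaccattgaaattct
Gm8730: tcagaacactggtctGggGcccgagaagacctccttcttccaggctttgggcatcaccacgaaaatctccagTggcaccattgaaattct
Gm6278: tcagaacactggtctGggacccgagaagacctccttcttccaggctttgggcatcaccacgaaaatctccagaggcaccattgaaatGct
Differences are denser here than in the Rps13 pair: a stretch of 100 bases was identical in Rplp0 and Gm8730 at 76 of 852 positions (8.92%).

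Rps2-ps6 showed another pattern. It had 1.36, 2.17 and 1.22 scaled FPKM in KO libraries, against 29.3, 1.28 and 1.90 in WT libraries, so that WT replicate 1 alone stood apart (log2 fold change -1.20 ± 0.84 SE, adjusted p = 0.572, limma). Gm11249, another copy of Rps2, named after its values were seen, that did not reach the filter for testing, was high in the same library, with 0.453, 0.627 and 0.534 scaled FPKM in KO, against 8.42, 0.496 and 0.264 in WT. Rps2 itself had 329, 245 and 300 in KO, against 305, 285 and 256 in WT. Rps2-ps6 lacks 24 bases of the repeat-rich start of the Rps2 coding sequence. The alignment placed them at bases 107 to 130, which are shown in capitals with 30 bases on each side. Because the sequence repeats at the gap, other placements give the same copy.
Rps2: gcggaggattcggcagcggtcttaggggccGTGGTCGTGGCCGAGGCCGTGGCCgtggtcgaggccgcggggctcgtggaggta
Rps2-ps6: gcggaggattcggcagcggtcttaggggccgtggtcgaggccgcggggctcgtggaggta

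The other 25 pseudogenes had log2 fold changes between -0.35 and 0.39, and none was called (limma); over all 27 the median was -0.07. Rpl17-ps10 averaged 13.1 ± 0.875 scaled FPKM in KO and 14.9 ± 2.09 in WT, and Rpl10a-ps1 9.58 ± 0.634 in KO and 10.3 ± 3.05 in WT (SD, n = 3 each). Rpl28-ps1 had 13.6, 11.8 and 11.1 scaled FPKM in KO, against 9.23, 13.4 and 10.2 in WT. Rps27a-ps3 had 5.72, 6.69 and 6.86 in KO, against 9.20, 8.14 and 7.54 in WT, and Rpl10-ps3 had 2.17, 2.10 and 2.01 in KO, against 2.22, 3.13 and 2.85 in WT. KO lay below WT in every library of both, with adjusted p-values of 0.284 and 0.374. Rpl15-ps3, identical to its parent over the whole coding sequence, had the largest positive fold change (0.39, adjusted p = 0.409). Its KO values of 5.96, 4.69 and 6.41 overlapped the WT values of 5.71, 3.07 and 3.75.

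Members identical to the parent over the aligned coding part were Rpl28-ps1, Rpl10a-ps1, Rpl15-ps3, Rps12-ps3, Rpl36a-ps2, Rpl10-ps1, Rpl10-ps3, Rps6-ps4 and Rpl27-ps3. Their reads from that part cannot be told from those of the parent by sequence. Rps12-ps3, Rpl10-ps3 and Rpl9-ps6 carry -ps in the name but are listed as protein-coding by GENCODE M21. Summed over the 27 pseudogenes, the level was 112 ± 4.72 scaled FPKM in KO and 200.4 ± 24.7 in WT, and without Rps13-ps1 it was 107 ± 4.73 and 120.4 ± 20.8. The highest of the sums without Rps13-ps1 was 144 in WT replicate 1, the library with 29.3 scaled FPKM of Rps2-ps6.

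**Figure D5:**
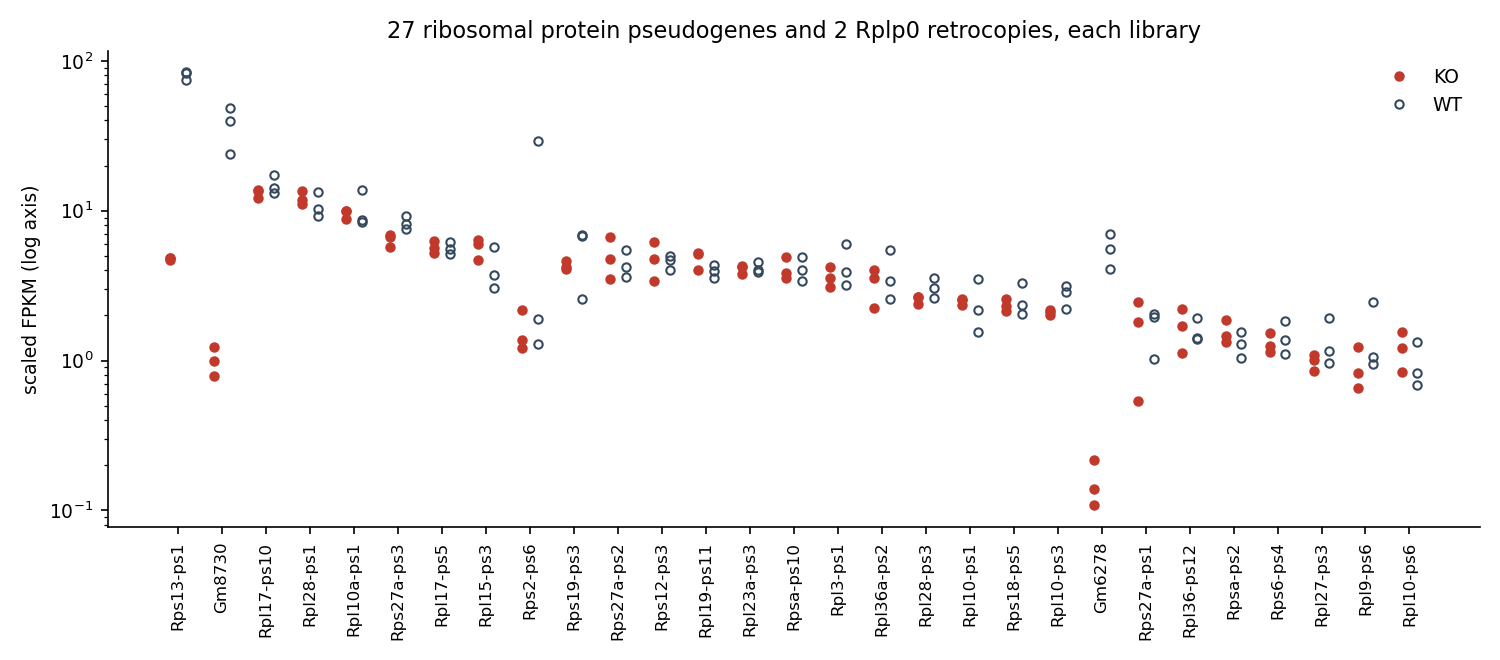
Scaled FPKM (log axis) of the 27 pseudogenes and of the Rplp0 retrocopies Gm8730 and Gm6278 in every library, ordered by mean level, with KO as filled points on the left and WT as open points on the right of each name. Only Rps13-ps1, Gm8730 and Gm6278 separate widely, and Rps2-ps6 has 1 high WT point at 29.3.

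Genes that work with the ribosomal proteins were counted in the same fit, with 1.07% of all rows called. The subunits named outside the Rpl and Rps pattern gave no call: Fau averaged 173 ± 40.1 scaled FPKM in KO and 143 ± 14.4 in WT, and Rack1 52.4 ± 1.34 and 51.2 ± 6.79. None of the 78 mitochondrial ribosomal protein genes, which serve the separate ribosome of the mitochondrion, was called, and their median log2 fold change was -0.01. No call was found among 36 initiation factors (median 0.07), 10 elongation and termination factors (0.07), 21 other TOP mRNAs (0.04), 60 ribosome biogenesis genes (0.09), 19 genes of RNA polymerases I and III (0.10) and 31 proteasome subunits (-0.06). In these lists, in that order from the mitochondrial one, 3, 2, 1, 1, 8, 3 and 1 genes had an unadjusted p under 0.05, against 14.1% of all rows. Eef1a1, the most abundant TOP mRNA here, had 934, 762 and 932 scaled FPKM in KO, against 1104, 785 and 815 in WT, and Npm1, a nucleolar chaperone, averaged 52.6 ± 4.24 in KO and 44.4 ± 3.26 in WT.

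Of the 30 tested genes of the mTORC1 and LARP1 axis, 1 was called. Pdcd4, an inhibitor of the helicase eIF4A that is degraded after phosphorylation by S6 kinase, fell to 16.7, 17.8 and 17.8 scaled FPKM in KO, against 35.6, 32.2 and 37.0 in WT (log2 fold change -0.96 ± 0.11 SE, adjusted p = 0.00923, limma). Without KO replicate 1 its adjusted p was 0.0694 and in the deposited, unscaled values 0.134, and with any other library left out it lay between 0.0173 and 0.0452. The median of that list was 0.02. The 14 tested genes of p53 signalling, through which unassembled ribosomal proteins act, had a median of 0.28, with 13 above 0, none called and 6 with an unadjusted p under 0.05 (14.1% of all rows). KO and WT did not overlap in 6 of them, 5 higher and 1 lower, against 20.2% of all rows. Cdkn1a averaged 68.7 ± 13.6 scaled FPKM in KO and 59.6 ± 11.6 in WT, and Trp53inp1, the only one below 0, 71.05 ± 14.5 in KO and 118 ± 20.01 in WT (log2 fold change -0.73, adjusted p = 0.126, limma).

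In the deposited values, without scaling between libraries, 29 of the 84 ribosomal protein genes were called, all higher in KO, where 29.3% of all rows were called. Their median log2 fold change was then 0.54, beside 0.45 over all rows. Of the 27 pseudogenes 5 were called in those values, with Rpl15-ps3, Rpl19-ps11 and Rpl28-ps1 higher and Rps13-ps1 and Rps2-ps6 lower in KO. For Rps2-ps6 only WT replicate 1 was high, with 22.6, 0.927 and 1.87 FPKM in WT, against 1.39, 2.78 and 1.70 in KO.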

How the data were processed

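The authors deposited FPKM values for 6 liver libraries. The submitters' processing notes name HISAT2 2.0.5 as well as mm39 and hg38, with no role for either build. Counting tool, strand setting, handling of multiply matching reads and filters: not given in the sources used here. Total RNA was made into libraries by an Illumina procedure, per the labels' protocols. The 9218 rows that reached 1 FPKM in 3 or more libraries gave median-of-ratios size factors and were tested with limma 3.58.1 (R 4.3.3, eBayes with trend, 4 residual degrees of freedom) on log2(scaled FPKM + 1) with genotype as the only term. Benjamini-Hochberg adjustment ran over all 9218 rows, and genes were called at an adjusted p under 0.05. With 3 libraries against 3, exact permutation allows no p below 0.1.

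Whole reads were recovered from the FPKM steps for 19610 of 19613 rows (99.98%, within 0.0001 reads); the totals leave out the other 3, among them Alb. Both steps were tested on simulated data, where the recovered reads were not exact for every gene, since the steps give the smallest whole numbers in the observed ratio. For 17024 rows, with Rps13, Rplp0, Rps2 and their 4 copies in the read sums among them, the exon length in GENCODE fixed the scale. Coding sequences, lengths and pseudogenes come from GENCODE M21 (GRCm38). As mm39 differs from it, genome positions are left out. Copies were found with BLASTN 2.17.0.

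Members, gene lists and tests were chosen with earlier results of these data known. Named genes were the called members, the 5 largest positive and negative fold changes, the 5 most abundant, a fixed set of subunits and paralogs, every pseudogene, and for each list the called genes and the 2 most abundant, of which the text prints a part. Replicate numbers were not taken as pairing the libraries. The targeted gene is not reported here.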

Additional observations from a re-analysis of the deposited data

How the results depend on the processing

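The absence of calls among the 84 ribosomal protein genes held under the other pseudocounts, filters, eBayes settings and scalings by upper quartile, to TPM and without ribosomal protein rows, limma-voom, for core genes alone, for members of at least 5 FPKM, and with any library left out (0 calls in each). A single gene, Rps13, was called with weights per library, with quantile normalization, with the replicate block (1 call each) and at an adjusted p under 0.1 (1 call). As deposited, 29 of them and 5 pseudogenes were called, and the median log2 fold change was 0.54, against -0.02 after scaling. With a library left out that median lay between -0.09 and 0.03, and it was 0.08 with quantile normalization and to TPM. The median deviation of the core genes in a library had an SD of 0.085 in KO and 0.13 in WT (n = 3 each). A single pseudogene, Rps13-ps1, was called with any library left out. Over all rows, 99 were called; the count was 354 with weights per library, 2703 as deposited, 61 with a mean of at least 5 FPKM, 33 without a filter, 220 at an adjusted p under 0.1, 52 when a log2 change of 1 or more was also required, and 20 to 97 with a library left out (20 without KO replicate 1, 45 without KO replicate 3, 48 without WT replicate 2, 54 without WT replicate 3). With the replicate number as a block, 298 rows were called. Deviations of same-numbered libraries correlated at 0.33, 0.47 and 0.018, and those of differently numbered libraries at -0.52 to 0.36. These correlations do not decide whether the numbers pair the libraries. The labels do not say that equal numbers share an animal, litter or day, so they were not taken as pairs. Adjusted p-values of Rps13 with a library left out lay between 0.0582 and 0.241. Among the 91 single genes followed, no fold change of a called gene changed sign; Pdcd4 was no longer called as deposited or without KO replicate 1 (adjusted p = 0.134 and 0.0694, limma), and Trp53inp1 was called with weights per library (0.0442). Adding retrocopy reads to the parent (164 rows) and taking the factors over every row above 0 were chosen after seeing the data. The cause of these moves was not tested, and counting error weighs most on rows of few reads, such as Gm6278 in KO.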
